A study of Mus musculus with 24 samples.

Results

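The Ets family genes that were not among the transduced factors were followed through endothelial conversion of amniotic cells. The 10 genes were Ets1, Ets2, Elk3, Etv4, Etv5, Etv6, Elf1, Elf2, Elf4 and Gabpa, of 22282 mouse genes in the files and 26 Ets genes listed for the comparison. They were taken by name and the rule used none of their measured values, but they were chosen with earlier results of these data known. All 10 passed the filter on low values that left 14964 genes for testing. All cells were of the C57BL/6J background, and each of the 8 groups had 3 libraries of polyadenylated RNA.

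MACs were mouse amniotic fluid cells cultured from E11.5 to E13.5 embryos. RACVECs were MACs given lentiviruses for mouse Etv2, Erg and Fli1, driven by the Pgk promoter, and grown in endothelial medium with a TGF-β inhibitor, so that factors and medium changed together between MACs and RACVECs. Akt-MACs and Akt-RACVECs carried in addition a lentivirus for constitutively active, myristoylated Akt, and Sox17-RACVECs carried a lentivirus for Sox17 with selection by puromycin. Akt-LECs and Akt-liver ECs were lung and liver endothelial cells (ECs) taken with beads against CD31, transduced with the same Akt, cultured and sorted again. The 6 libraries of these groups are called cultured ECs here, and all of them carried Akt, whereas MACs and RACVECs did not. LSECs were liver ECs sorted directly from the organ without culture or transduction. The study describes the lung and liver ECs as adult, without an age in the sources used here, so the EC groups came from adult mice and the amniotic groups from embryos.

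Ets proteins share a winged helix-turn-helix domain that binds DNA around a GGAA core, and several of them are phosphorylated by the Ras-Erk cascade. Etv2 acts early in the embryo to specify endothelium, and Erg, Fli1, Ets1 and others act later in vessels, and the family members recognise similar sites. Elk3 is a ternary complex factor that works with Srf, Etv4 and Etv5 belong to the Pea3 group whose transcripts respond to Fgf and Erk signalling, Etv6 is a repressor, Elf1, Elf2 and Elf4 form the Elf group, and Gabpa is the DNA-binding subunit of GABP.

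The upstream sequences of Elk3, Ets2 and Etv5, the members called between Akt-RACVECs and Akt-MACs, and of Gabpa, the most level member, are shown for the Ets core letters they hold. Each sequence is the 250 bases before a RefSeq start on GRCm38.p6, a later build than the mm9 of the expression files, and is written 5′ to 3′ along the gene. Capitals mark GGAA and its reverse complement TTCC. Of the 10 members 8 were matched, with 12 promoters, and Ets1 and Etv4 were not.
Elk3, chr10:93311160-93311409, minus strand: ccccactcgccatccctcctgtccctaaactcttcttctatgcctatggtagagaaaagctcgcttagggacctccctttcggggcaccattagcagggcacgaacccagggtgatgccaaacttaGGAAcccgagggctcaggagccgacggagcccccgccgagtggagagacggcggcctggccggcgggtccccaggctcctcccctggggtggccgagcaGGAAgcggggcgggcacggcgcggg
Ets2, chr16:95702157-95702406, plus strand: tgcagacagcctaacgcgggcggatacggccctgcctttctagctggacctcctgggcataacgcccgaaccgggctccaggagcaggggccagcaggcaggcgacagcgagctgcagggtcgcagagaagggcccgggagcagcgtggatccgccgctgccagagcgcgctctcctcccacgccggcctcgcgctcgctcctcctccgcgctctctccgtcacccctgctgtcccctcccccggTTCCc
Etv5, chr16:22439571-22439820, minus strand: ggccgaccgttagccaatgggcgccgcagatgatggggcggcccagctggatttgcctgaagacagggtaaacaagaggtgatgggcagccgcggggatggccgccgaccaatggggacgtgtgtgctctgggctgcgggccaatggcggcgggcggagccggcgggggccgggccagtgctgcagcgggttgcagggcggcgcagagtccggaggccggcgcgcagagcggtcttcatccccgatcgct
Etv5, chr16:22438369-22438618, minus strand: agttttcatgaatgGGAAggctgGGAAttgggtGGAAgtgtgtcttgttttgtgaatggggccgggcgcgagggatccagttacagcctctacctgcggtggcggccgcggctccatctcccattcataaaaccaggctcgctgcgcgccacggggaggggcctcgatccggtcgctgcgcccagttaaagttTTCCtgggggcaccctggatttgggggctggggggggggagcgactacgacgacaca
Gabpa, chr16:84834874-84835123, plus strand: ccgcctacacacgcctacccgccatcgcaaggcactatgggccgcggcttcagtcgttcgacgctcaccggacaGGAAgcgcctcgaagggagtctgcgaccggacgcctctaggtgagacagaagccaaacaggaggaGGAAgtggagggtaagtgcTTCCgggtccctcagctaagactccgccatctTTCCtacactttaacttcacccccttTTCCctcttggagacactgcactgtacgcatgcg
GGAA or TTCC occurred 2 times before Elk3, 1 time before Ets2, 0 times before the upstream start of Etv5, 4 times before its downstream start and 5 times before Gabpa. Of the 12 member promoters 10 held GGAA or TTCC, against 93.4% of all 32851 promoters in the table, where the median was 3. The longer run CCGGAA, or TTCCGG on the other strand, which contains GGAA or TTCC, was in 1 of the 12, that of Gabpa, against 12% of all. These matches describe letters, not sites where a protein was seen.

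FPKM, which scale the fragments of a transcript to its length and to the library, were deposited as 1 value per RefSeq transcript and summed per gene. Ets1 was the member with 2 transcripts, and its main transcript held 80.8% to 98.5% of the gene (median 92.7%). The summed FPKM of a library was between 1689486 and 2317294, and the number of fragments behind it is unknown. The 8 groups entered limma as log2(FPKM + 1), and a gene was called at a Benjamini-Hochberg adjusted p below 0.05 over all genes tested and a log2 fold change past 1 or -1. A log2 fold change on this scale understates the change of low genes.

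Several libraries stood apart. The library labelled Sox17-RACVEC 2 listed Etv2 at an FPKM of 0, against 458 and 378 in the other 2 libraries of its group, and Erg at 387 against 4.49 and 0. Across genes its correlation was 0.962 with the Akt-RACVEC mean and 0.879 with the mean of the other libraries of its own group. Akt-LEC 1 and Akt-liver EC 1 held the fibroblast transcript Col1a1 at 1065 and 556, against at most 5.66 in the other 4 cultured EC libraries, and the macrophage transcript Lyz2 at 1225 and 777. The Akt-MACs held macrophage RNA, with Lyz2 at 708, 5939 and 21124 against at most 14.3 in MACs. The summed FPKM of 7 leukocyte markers found in the files was 789 to 27100 in Akt-MACs, 0.79 to 18.9 in MACs and 4560 to 7030 in LSECs, and 4 of the 7 were at 0 in every MAC library. LSECs also held hepatocyte markers (1950 to 11300, with none of the 5 at 0) and 2 red blood cell markers (10300 to 10900). The 7 genes induced by tissue dissociation summed to 3040, 3830 and 21900 in LSECs. Only LSEC 3 was above the other groups, which reached 6560 in the library labelled Sox17-RACVEC 2. The header of RACVEC 3 names Flk1 and GFP, unlike the other RACVEC libraries, and without it 0 members were called in RACVECs against MACs, as with it. The 7 endothelial markers summed to 11300 to 14000 in LSECs, 9750 to 14000 in Akt-RACVECs, 1270 to 2530 in RACVECs and 8.11 to 26.8 in MACs. Erg, although transduced, was at 3.91, 13.8 and 0.90 in RACVECs and at 395 to 1002 in Akt-RACVECs. Whether transcripts of the lentiviral Etv2, Erg and Fli1 count in these FPKM is not given in the sources used here, so values of the 3 genes, here and below, may or may not include them.

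The 10 members together had a summed FPKM of 993 ± 136 in MACs, 1140 ± 22.2 in Akt-MACs and 1088 ± 87.3 in RACVECs (mean ± SD, n = 3 here and below). The sum was 2312 ± 213 in Akt-RACVECs, 1854 ± 813 in Sox17-RACVECs, 2236 ± 746 in Akt-LECs, 2120 ± 594 in Akt-liver ECs and 3930 ± 667 in LSECs. The members' share of all Ets FPKM was lowest in RACVECs, 50.0% ± 4.01, where Etv2, Erg and Fli1 took 29.2% to 44.3%. It was highest in LSECs, 77.8% ± 0.533. The Ets gene with the highest mean changed with the group. It was Etv5 in MACs, the macrophage and B cell factor Spi1 in Akt-MACs, Etv2 in RACVECs, Elk3 in both Akt-RACVECs and Sox17-RACVECs and in all cultured ECs, and Ets2 in LSECs.

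**Figure D1:**
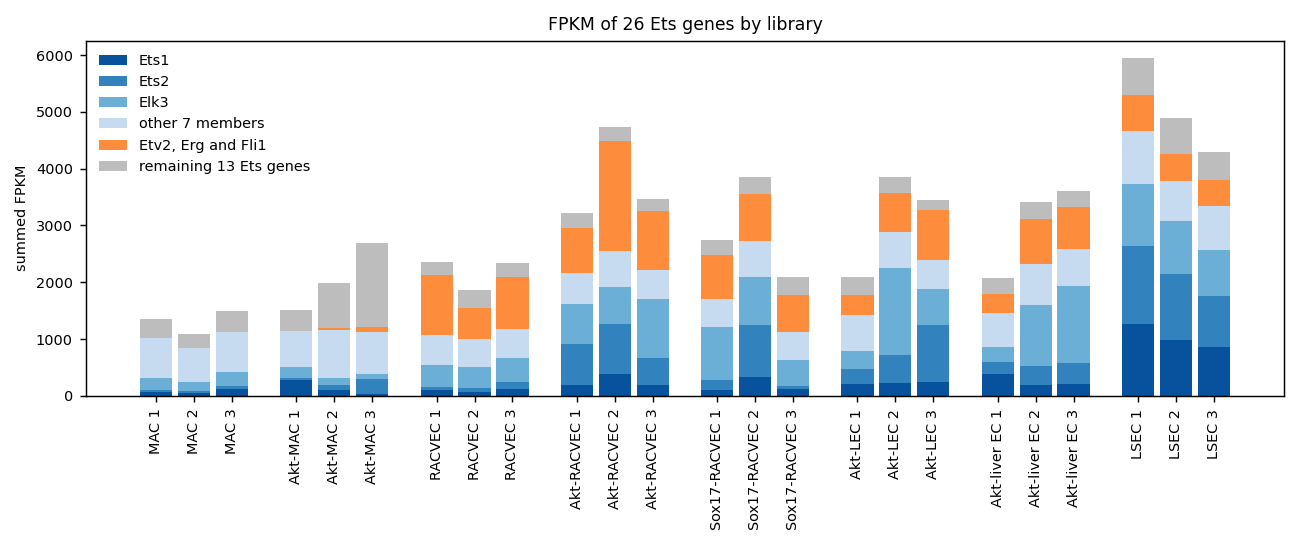
Summed FPKM (y axis) of 26 Ets genes in each of 24 libraries (x axis), split into Ets1, Ets2, Elk3, the other 7 members, the 3 transduced factors and the remaining 13 Ets genes. Ets1, Ets2 and Elk3 make up most of the members' sum in LSECs and a smaller part of it in MACs, and the remaining Ets genes, with Spi1, are large in Akt-MAC 2 and 3.

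Between the 8 groups, 9 of the 10 members differed by limma's moderated F test (adjusted p below 0.05), against 54% of all genes tested. Gabpa was the exception, with an adjusted p of 0.596. Without the LSECs the count was 4 of 10, Ets2, Elk3, Etv5 and Etv6, against 2997 of 14567 genes tested. Elf4 was close to the threshold, with an adjusted p of 0.0433 and a range of 0.000551 to 0.144 over 32 alternatives, 19 of which lost it. Across the 24 libraries the ratio of the highest to the lowest FPKM was 49.7 for Ets2, 33.4 for Ets1, 17.6 for Elk3, 11.2 for Elf4, 6.02 for Elf1 and 4.90 for Elf2. It was 2.97 for Etv6 and 2.36 for Gabpa. Etv5 ranged from 0.42 to 461, and Etv4 was listed at 0 in 5 libraries and reached 137. None of 14 housekeeping genes was listed at 0 in any library.

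**Figure D2:**
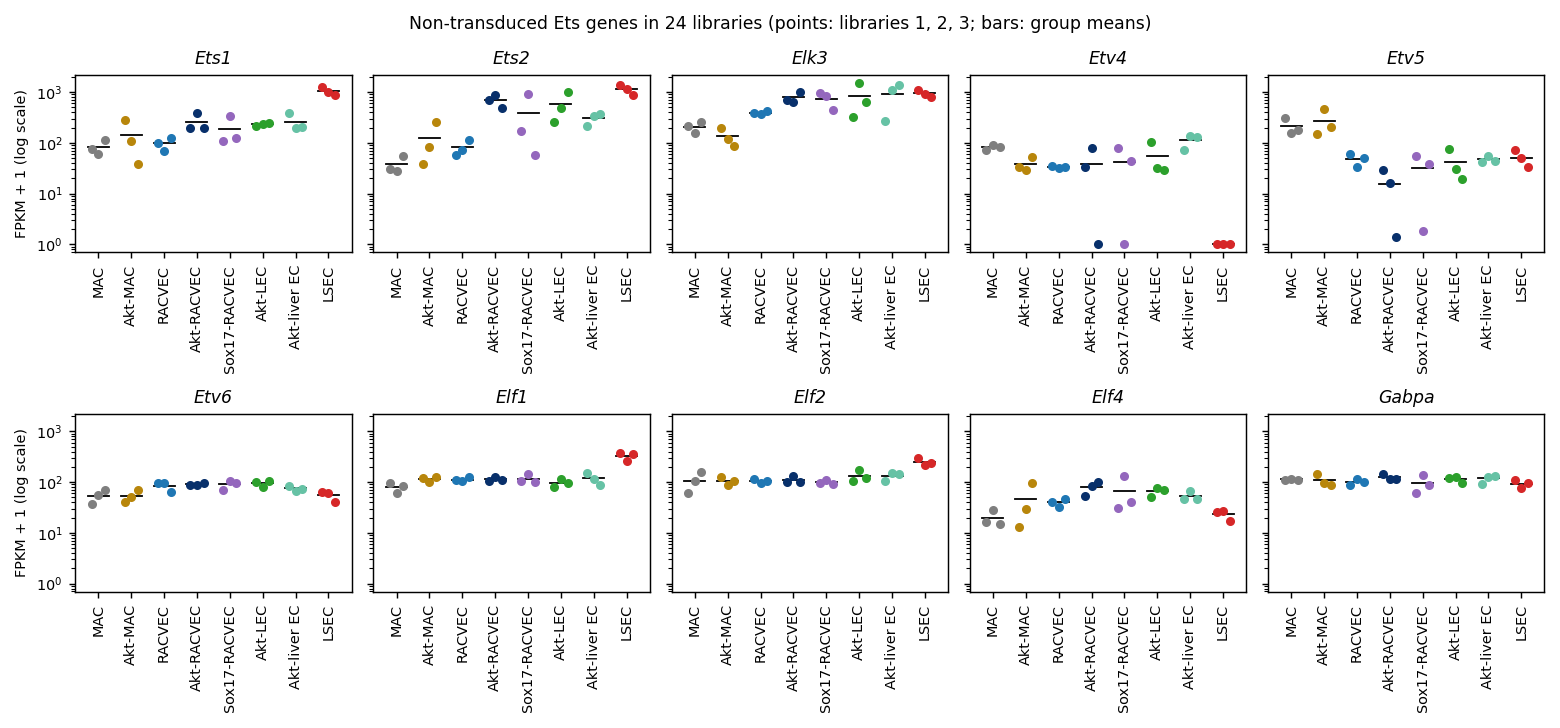
FPKM + 1 on a log axis for the 10 members in 8 groups, with points for libraries 1, 2 and 3 from left to right and bars for group means. Ets1, Elf1 and Elf2 are highest in LSECs, Etv4 is at 0 there, and Gabpa is level across the groups.

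Elk3 (chromosome 10, 92710159 to 92773880 on mm9), Ets2 (chromosome 16, 95923682 to 95942658) and Ets1 (chromosome 9, 32443806 to 32565405) were lower in MACs than in cultured ECs, and so was Elf4 (chromosome X, 45764223 to 45816309). Elk3 was at 210.3, 153 and 256 in MACs. The Akt-LEC libraries were at 321, 1539 and 632, and the Akt-liver EC libraries at 269, 1079.6 and 1359. The lowest 2 of these 6 cultured EC values were those of Akt-LEC 1 and Akt-liver EC 1, the libraries with Col1a1. Every cultured EC library was above every MAC library, and the log2 fold change was -1.80 (standard error 0.46, adjusted p = 0.0119).

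Ets2, which like Ets1 is activated by Erk phosphorylation, was at 28.9, 27.3 and 54.55 in MACs. It was at 252, 480.3 and 992 in the Akt-LECs and at 216, 330.4 and 366 in Akt-liver ECs. The groups did not overlap, and the log2 fold change of -3.41 was the largest of the members in this comparison (standard error 0.66, adjusted p = 0.00201).

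Ets1, a long-known factor of vessels and lymphocytes, was at 75.8, 59.5 and 113 in MACs, at 215, 234 and 249.97 in Akt-LECs and at 379, 195 and 209 in Akt-liver ECs. Its 3 Akt-LEC values lay close together and again no library of the groups overlapped (log2 fold change -1.58, standard error 0.47, adjusted p = 0.0239). Elf4, which acts in lymphocyte quiescence and interferon responses, was at 15.4, 27.0 and 14.3 in MACs, at 49.8, 76.3 and 68.0 in Akt-LECs and at 45.7, 65 and 45.0 in Akt-liver ECs. Its log2 fold change was -1.60 (standard error 0.49, adjusted p = 0.0289).

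Of the 10 members, 4 were therefore called lower and 0 higher in MACs than in cultured ECs, where 7.3% of all genes were called lower and 7.51% higher. The same 4 did not overlap, nor did Etv5, which was the other way (10.1% of all genes did not overlap on the lower side and 8.27% on the higher side). The median log2 fold change of the members was -0.57, against -0.03 over all genes tested. Etv6 passed the adjusted p but not the fold (log2 fold change -0.70, adjusted p = 0.0351). Ets2 kept its call under all 17 alternatives (adjusted p 0.00141 to 0.0143), whereas Elk3, Ets1 and Elf4 each lost it under 3, with adjusted p reaching 0.0916, 0.0913 and 0.106. Among the single libraries left out, the losses came without MAC 2 for Elk3, without MAC 1 or MAC 2 for Ets1, and without MAC 1, MAC 3 or Akt-liver EC 2 for Elf4. Without Akt-LEC 1 and Akt-liver EC 1 the log2 fold change of Elk3 was -2.43 (adjusted p = 0.000120) and that of Ets1 -1.46 (adjusted p = 0.0555). The 7 mesenchymal markers summed to 2430 to 5890 in MACs and to 27.5 to 3230 in cultured ECs, with 4 of 7 called higher in MACs, and 6 of 7 endothelial markers were called lower in MACs. The part of these markers' cells in the members' values was not tested. In these bulk RNAs fewer cells with a transcript and less of it per cell cannot be told apart.

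RACVECs against MACs set the transduction of the 3 factors, with the endothelial medium, against the starting cells. No member was called (0 of 10, against 2.71% of all genes), with 2 at an unadjusted p below 0.05 by limma, Etv6 (log2 fold change 0.69) and Elf1 (0.51). The share of all genes at an unadjusted p below 0.05 is not given here or below. Such counts therefore say nothing particular to the members or lists. The libraries of the groups did not overlap for 6 members, against 22% of all genes. Elk3 was at 389.7, 365 and 425 in RACVECs, above every MAC library (log2 fold change 0.96, standard error 0.54, adjusted p = 0.338). Ets2 was at 56.75, 70.9 and 113.5 in RACVECs, just above the MAC range (log2 fold change 1.11). Elf4 was at 40.4, 31.4 and 45.1 and Elf1 at 107, 103 and 124, also above MACs, whereas Ets1, at 96.6, 67.0 and 126, overlapped MACs. Among the transduced genes Fli1 rose by 7.08 on the log2 scale (adjusted p = 1.58e-05), and Etv2, listed at 0 in MACs, was at 859.9, 301 and 659.

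In Akt-RACVECs against RACVECs, which differ by the Akt lentivirus, no member was called either (0 of 10, against 0.261% of all genes). By limma 3 members had an unadjusted p below 0.05, again without a share of all genes to set beside the count. Ets2 was at 715, 881 and 477 in Akt-RACVECs, each several times the highest RACVEC library. Its log2 fold change of 3.10 had a standard error of 0.76 and an adjusted p of 0.0643, with a range of 0.0262 to 0.234 over 13 alternatives, and it was called when only these 2 groups were fitted. Ets1 was at 196, 386 and 196 in Akt-RACVECs, above every RACVEC library (log2 fold change 1.38, standard error 0.54, adjusted p = 0.219). Etv5 was at 28.2, 15.4 and 0.42 in Akt-RACVECs and at 58.7, 32.1 and 48.9 in RACVECs (log2 fold change -2.39, standard error 1.05, adjusted p = 0.268).

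The libraries of the 2 groups did not overlap for 6 members, Ets1, Ets2, Elk3, Elf4 and Gabpa on the higher side and Etv5 on the lower, against 19.8% of all genes. Elk3 was at 703, 653 and 1025 in Akt-RACVECs (log2 fold change 0.99, adjusted p = 0.380) and Elf4 at 51.4, 84.0 and 101 (0.96, adjusted p = 0.422). The 7 mesenchymal markers summed to 6.04 to 325 in Akt-RACVECs and to 1360 to 4640 in RACVECs. The 7 endothelial markers summed to 9750 to 14000 in Akt-RACVECs and to 1270 to 2530 in RACVECs. The part of these markers' cells in the differences was not tested. Of the transduced genes Erg rose by 6.73 on the log2 scale (standard error 1.31, adjusted p = 0.0363). By qPCR, the study reported no change of Etv2, Erg and Fli1 transcripts with Akt.

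Akt-RACVECs against Akt-MACs compared cells with and without the factors, with Akt in both groups. The medium of Akt-MACs is not given in the sources used here, so factors and medium may have differed together. The leukocyte markers summed to 7.24 to 147 in Akt-RACVECs and to 789 to 27100 in Akt-MACs, and their part was not tested. Of the 10 members 2 were called higher and 1 lower, against 6.15% and 13.4% of all genes. The 7 mesenchymal markers summed to 6.04 to 325 in Akt-RACVECs and to 1820 to 7130 in Akt-MACs, with 3 of 7 called lower, and their part in the members' values was not tested. Elk3 was at 199, 118 and 87.7 in Akt-MACs, all below the Akt-RACVEC libraries. The log2 fold change was 2.60 (standard error 0.54, adjusted p = 0.00275), about 6.06 times on the FPKM + 1 scale.

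Ets2 was at 36.8, 83.5 and 258 in Akt-MACs, and its highest library was the one with the most Lyz2. Akt-RACVECs were above all 3 (log2 fold change 2.84, standard error 0.76, adjusted p = 0.0131). Etv5 (chromosome 16, 22381382 to 22439792) was at 146, 461 and 203 in Akt-MACs, more than every Akt-RACVEC library, and fell by 4.77 on the log2 scale (standard error 1.05, adjusted p = 0.00417). The third Akt-RACVEC library, at 0.42, was the lowest of all 24 for this gene.

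The median log2 fold change of the 10 members was 0.51, against -0.09 over all genes tested, and 4 members did not overlap (37.4% of all genes). Etv6 passed the adjusted p with a log2 fold change of 0.81 (adjusted p = 0.0309). Without Akt-MAC 2 and 3, which had the most macrophage RNA, 1 Akt-MAC library remained and is assumed to vary like the other groups. The log2 fold change was then 4.15 for Ets2, 2.59 for Elf4, 1.96 for Elk3 and -4.06 for Etv5, and that of Ets1 turned from 1.20 to -0.20. Calls in this fit rest on that 1 Akt-MAC library, so they are not listed. In a fit of these 2 groups alone Elk3 kept its call, and Ets2 (adjusted p = 0.0542) and Etv5 (adjusted p = 0.0532) lost theirs. That fit called 1377 of all genes, in place of 2924. The calls also depended on Akt-MAC 1, without which Ets2 had an adjusted p of 0.0655 and Ets1 was called (1.90, adjusted p = 0.0125), and on Akt-MAC 3, without which Elf4 (1.99) and Etv6 (1.02) were called too. Over 14 alternatives the adjusted p ranged from 0.00252 to 0.151 for Elk3, 0.00479 to 0.0984 for Ets2, 0.00071 to 0.139 for Etv5, 0.0125 to 0.907 for Ets1 and 0.0117 to 0.531 for Elf4.

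**Figure D3:**
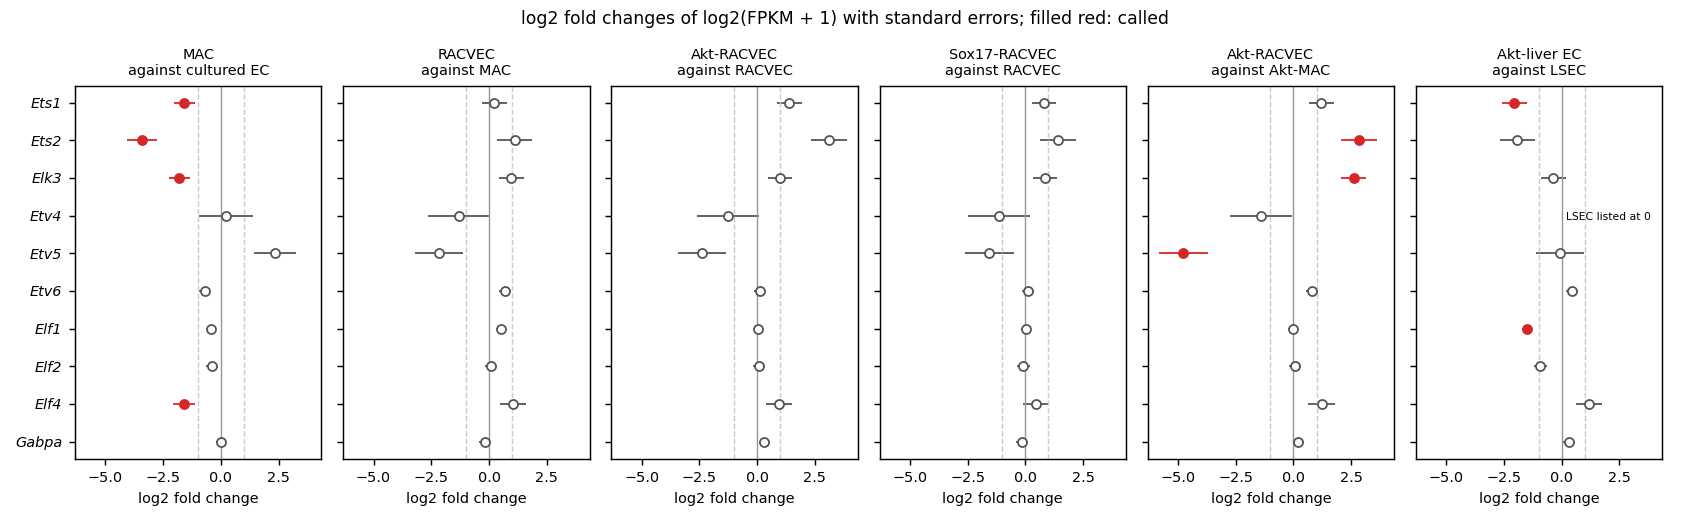
log2 fold change (x axis) of log2(FPKM + 1) with its standard error for the 10 members (y axis) in 6 comparisons, with filled red points for called members and dashed lines at 1 and -1. Ets2 and Elk3 are called on opposite sides of 0 in MACs against cultured ECs and in Akt-RACVECs against Akt-MACs, and Etv4 has no value where LSECs were listed at 0.

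In Akt-MACs against MACs 0 members were called, against 2.81% of all genes, and 1 had an unadjusted p below 0.05 by limma, Elf1 (log2 fold change 0.56). Among the Akt-MAC libraries Ets1 ran from 281 in Akt-MAC 1 to 109.9 and 38.15, while Ets2, Elf4 and Spi1 had their lowest value in Akt-MAC 1 and their highest in Akt-MAC 3. Elf4 was at 11.8, 28.3 and 95.5, and Spi1 at 11.4, 491 and 1151. The part of macrophage RNA in these values was not tested. The difference between the Akt effect in RACVECs and that in MACs was called for 0 members (0.1% of all genes). By limma 1 of them had an unadjusted p below 0.05, Elk3, with a difference of 1.64 on the log2 scale (standard error 0.76, adjusted p = 0.399).

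**Figure D4:**
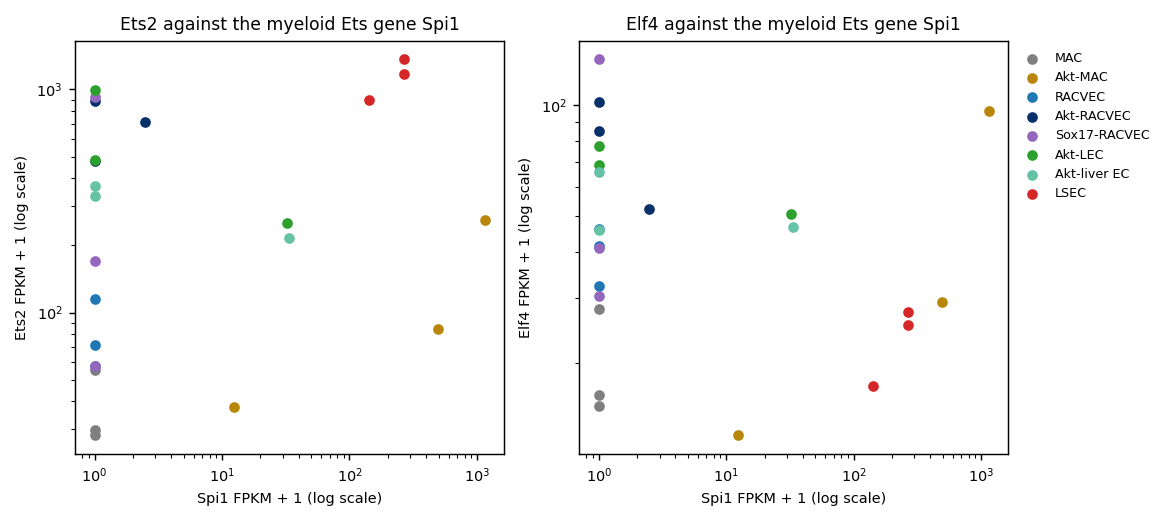
Ets2 (left) and Elf4 (right) FPKM + 1 on the y axis against Spi1 FPKM + 1 on the x axis, both on log axes, with 1 point per library coloured by group. Within Akt-MACs the library highest in Spi1 is highest in Ets2 and Elf4. Akt-RACVECs have Ets2 above every Akt-MAC library and Spi1 at or near 0. The part of macrophage RNA was not tested.

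Sox17-RACVECs against RACVECs gave 0 members called (0.00668% of all genes) and 0 at an unadjusted p below 0.05 by limma. Elk3 was at 943, 844 and 450.3 in Sox17-RACVECs and was the 1 member above every RACVEC library (4.05% of all genes). Ets2 was at 169, 920.3 and 56.9, Ets1 at 106, 332 and 125, and Elf4 at 29.4, 132 and 39.99. In each of these last 3 genes the library labelled Sox17-RACVEC 2 was the highest of the 3, and it was the lowest for Etv5 (53.7, 0.81 and 37.6) and Etv4 (78.8, 0 and 43.8). Sox17 itself was at 5.09, 40.1 and 200.06 in the 3 libraries and at 0 in RACVECs.

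Without the library labelled Sox17-RACVEC 2 the log2 fold change against RACVECs was 0.35 for Ets2 in place of 1.42, 0.30 for Ets1 in place of 0.81 and 0.84 for Etv4 in place of -1.13, with 0 members called (9 of 14995 genes). Against Akt-RACVECs 0 members were called with all libraries (0% of all genes), and 1 had an unadjusted p below 0.05, Ets2 (log2 fold change -1.69, adjusted p = 0.620). Without that library Ets2 was called lower in Sox17-RACVECs (-2.76, adjusted p = 0.0356, of a range of 0.0356 to 1 over 13 alternatives). That fit called 340 of 14995 genes.

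RACVECs were lower than cultured ECs in Ets2 (log2 fold change -2.30, adjusted p = 0.0794) and Ets1 (-1.36, adjusted p = 0.142) without a call. The count was 0 of 10, against 1.88% of all genes, with these 2 at an unadjusted p below 0.05 by limma. Both also did not overlap between the groups, which held for 4.26% of all genes on the lower side. Without Akt-LEC 1 and Akt-liver EC 1, Ets2 (-2.65, adjusted p = 0.0417) and Elk3 (-1.48, adjusted p = 0.0176) were called, with 657 of 14932 genes called. Akt-RACVECs against the cultured ECs, which share Akt, gave 0 calls (0.448% of all genes), and the 1 member with an unadjusted p below 0.05 was Etv5 (-2.21, adjusted p = 0.264). The log2 fold change was 0.14 for Elk3, 0.03 for Ets1 and 0.81 for Ets2, and for Ets2 the 95% interval was -0.58 to 2.19. Akt-LECs against Akt-liver ECs gave 0 calls (0.0134% of all genes) and 0 members at an unadjusted p below 0.05. These comparisons share libraries with each other and are not independent.

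LSECs had the highest mean of the 8 groups for 5 members, Ets1, Ets2, Elk3, Elf1 and Elf2. Ets1 was at 1272, 985 and 865 in LSECs, more than 2 times the highest of the other 21 libraries, and was lower by 2.04 on the log2 scale in Akt-liver ECs (log2 fold change -2.04, standard error 0.54, adjusted p = 0.00679). Elf1 (chromosome 14, 79881001 to 79982283), which is abundant in blood and endothelial cells, was at 369, 265.5 and 352 in LSECs. In Akt-liver ECs it was at 152, 113 and 88.0, without overlap (log2 fold change -1.498, standard error 0.22, adjusted p = 4.165e-05). Outside the LSECs Elf1 stayed between 61.25 and 152 in 21 libraries.

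Ets2 was at 1359, 1165 and 894 in LSECs and lower in each Akt-liver EC library (log2 fold change -1.92, standard error 0.76, adjusted p = 0.0592). Elf2 (chromosome 3, 51059153 to 51144580) was at 253 ± 39.6 in LSECs and 134 ± 23.7 in Akt-liver ECs, and its log2 fold change of -0.92 (adjusted p = 0.0120) was short of the fold required. Elk3 was at 1095, 934 and 816 in LSECs, inside the range of Akt-liver ECs (log2 fold change -0.36, standard error 0.54).

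Etv4 (chromosome 11, 101631056 to 101646685) went the other way. It was listed at 0 in all 3 LSEC libraries and at 69.85, 137 and 129 in Akt-liver ECs, the group with its highest mean, and was called higher there (adjusted p = 0.000789). Elf4 was at 24.3, 26.5 and 16.3 in LSECs, below every Akt-liver EC library (log2 fold change 1.18, standard error 0.57). In this comparison 3 of 10 members were called, against 27% of all genes, and 7 of 10 did not overlap, against 52.6%, so that the members' share was near that of all genes. The calls of Elf1, Ets1 and Etv4 held under 14 alternatives, with adjusted p of at most 0.00996, 0.0310 and 0.00422. Culture, Akt and the way of sorting differed together between these groups and cannot be told apart, and leukocyte, hepatocyte and red blood cell markers were high in LSECs. Their part in the values of Ets1, Ets2, Elf1 and Elf2 was not tested.

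Of the Pea3 factors, Etv5 had its highest means in Akt-MACs and MACs, whereas Etv4 had its highest in Akt-liver ECs, followed by MACs. Etv5 was at 315, 156 and 179 in MACs, above all 18 libraries outside MACs and Akt-MACs, the highest of which was Akt-LEC 1 at 73.4. Against cultured ECs (Akt-LECs at 73.4, 29.3 and 18.3, Akt-liver ECs at 40.35, 54.5 and 43.5) the log2 fold change was 2.36 (standard error 0.91, adjusted p = 0.0740), with a range of 0.00884 to 0.227 over 17 alternatives, 3 of which called it. Against RACVECs the log2 fold change of RACVECs was -2.17 (standard error 1.05, adjusted p = 0.263).

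Etv4 was at 71.1, 89.7 and 83.3 in MACs and at 33.9, 30.5 and 32.75 in RACVECs, without overlap, and at 32.15, 27.8 and 50.9 in Akt-MACs. Neither difference was called (log2 fold changes of -1.30 and -1.16, standard error 1.34 for each). In Akt-RACVECs it was at 33.1, 77.1 and 0 and in Akt-LECs at 104, 30.9 and 27.6. Of the 10 members Etv4 had the largest standard error. The 2 libraries other than LSECs with Etv4 at 0, Akt-RACVEC 3 and the library labelled Sox17-RACVEC 2, were also the lowest 2 in Etv5.

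**Figure D5:**
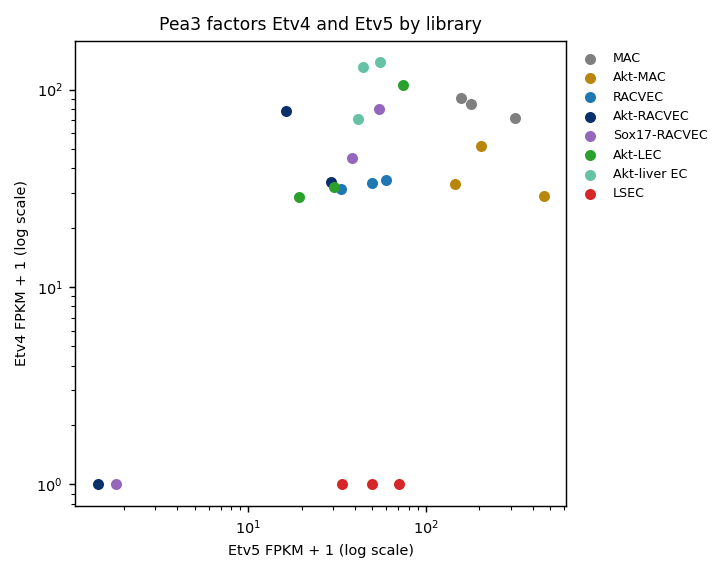
Etv4 FPKM + 1 (y axis) against Etv5 FPKM + 1 (x axis), both on log axes, with 1 point per library coloured by group. The 3 LSEC libraries lie at 0 for Etv4 with Etv5 at 32.8 to 69.8, and 2 further libraries are low in both genes.

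Of 8 transcripts used as a readout of Erk signalling, beside which Etv4 and Etv5 are often read, few were called. In Akt-RACVECs against Akt-MACs 0 were called higher and 1 lower, against 6.15% and 13.4% of all genes. The gene called was the receptor Epha4 (log2 fold change -3.16, adjusted p = 0.0372), and the list's median was -1.59 against -0.09 over all genes. In MACs against cultured ECs 0 were called higher and 1 lower, against 7.51% and 7.3% of all genes. The gene called was the receptor Epha2 (-1.70, adjusted p = 0.0257). Without a call 6 had values above 0, and the median was 1.10 against -0.03 over all genes. In Akt-liver ECs against LSECs 2 were called, both higher, against 27% of all genes called in either direction. They were Epha2 (2.88, adjusted p = 0.00101) and the Erk phosphatase Dusp4 (2.01, adjusted p = 0.0477). In the other 9 comparisons 0 of the 8 were called by limma, with 5 of 72 values at an unadjusted p below 0.05. Their median was -1.04 in RACVECs against MACs, against 0 over all genes.

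Etv6 (chromosome 6, 133985718 to 134220176) moved within a narrow band. Its mean was 52.6 ± 16.1 in MACs, 52.2 ± 14.5 in Akt-MACs, 84.0 ± 18.2 in RACVECs, 90.2 ± 4.95 in Akt-RACVECs and 89.6 ± 17.9 in Sox17-RACVECs. It was 94.8 ± 13.7 in Akt-LECs, 74.3 ± 9.77 in Akt-liver ECs and 54.3 ± 13.3 in LSECs. MACs, Akt-MACs and LSECs thus had the 3 lowest means, and no pairwise comparison reached the fold required with all libraries.

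Gabpa (chromosome 16, 84835170 to 84864024), which with its Gabpb partners activates ribosomal and mitochondrial genes, was the most level member. Its group means lay between 92.7 ± 15.0 in LSECs and 125 ± 14.5 in Akt-RACVECs, and its libraries between 60.5 and 143. Of 10 partners and regulators of the members, 1 was called higher and 0 lower in Akt-RACVECs against Akt-MACs. The shares of all genes were 6.15% and 13.4%. The partner called was Gabpb1 (log2 fold change 1.43, standard error 0.27, adjusted p = 0.00141). It was at 143, 169.8 and 117 in Akt-RACVECs and at 61.0, 40.15 and 57.5 in Akt-MACs; the log2 fold change of Gabpa there was 0.21. In Akt-liver ECs against LSECs 1 was called, against 27% of all genes. It was Cic, a repressor of Etv4 and Etv5 transcription (1.07, adjusted p = 0.00174). In the other 10 comparisons 0 of the 10 were called by limma, with 8 of 100 values at an unadjusted p below 0.05.

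Among the remaining 13 Ets genes 9 passed the filter. Etv1, the third Pea3 gene, was at 116, 30.4 and 155 in MACs and at 0.55 to 28.9 in cultured ECs, and was called higher in MACs (log2 fold change 4.31, standard error 0.88, adjusted p = 0.00276). It was lower in Akt-RACVECs than in Akt-MACs (-3.003, adjusted p = 0.0385). Spi1, Spib and Spic, which belong to blood cells, were lower in Akt-RACVECs than in Akt-MACs (log2 fold changes of -7.14, -2.03 and -3.54), and also lower in Akt-liver ECs against LSECs (-6.07, -2.89 and -5.83). Spi1 was higher in Akt-MACs than in MACs, where it was listed at 0.

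The order of the group means differed between members. For Ets1 it ran from LSECs (1041 ± 209) over Akt-liver ECs (261 ± 103), Akt-RACVECs (259 ± 109.7), Akt-LECs (233 ± 17.5), Sox17-RACVECs (188 ± 126), Akt-MACs (143 ± 125) and RACVECs (96.4 ± 29.4) to MACs (82.8 ± 27.4), and below the LSECs all neighbours overlapped. For Ets2 it ran from LSECs (1139 ± 233) over Akt-RACVECs (691 ± 203), Akt-LECs (575 ± 379), Sox17-RACVECs (382 ± 470), Akt-liver ECs (304 ± 78.7), Akt-MACs (126 ± 117) and RACVECs (80.4 ± 29.5) to MACs (36.9 ± 15.3). LSECs did not overlap Akt-RACVECs, the next group, but their lowest library (894) lay below Akt-LEC 3 and the library labelled Sox17-RACVEC 2, and MACs did not overlap RACVECs but held Akt-MAC 1 (36.8) in their range. For Elk3 the 5 highest means, from LSECs (948 ± 140.2) to Sox17-RACVECs (746 ± 261), overlapped their neighbours, followed by RACVECs (393 ± 30.1), MACs (206 ± 51.8) and Akt-MACs (135 ± 57.5). RACVECs overlapped neither Sox17-RACVECs nor MACs, but Akt-LEC 1 (321) and Akt-liver EC 1 (269) lay below every RACVEC library. For Elf4 the mean was highest in Akt-RACVECs (78.7 ± 25.1) and lowest in MACs (18.9 ± 7.05), and for Etv5 the gap lay between MACs (217 ± 85.6) and the 6 groups below them.

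Across the 24 libraries, which share groups, cell makeup and a normalization, log2(FPKM + 1) of Ets1 correlated with that of Elf1 (Pearson r = 0.786), Elf2 (0.756) and Ets2 (0.718), and Ets2 with Elk3 (0.678). Etv4 and Etv5 correlated at 0.514. With Elf1, r was -0.748 for Etv4 and -0.164 for Etv5, and with Elk3 it was -0.385 and -0.642. In the LSEC libraries Etv4 was at 0 and Elf1 at its highest, and r without these libraries was not computed. Of 11485 genes searched, those most like each member outside the family were Kank3 (0.930), Egfl7 (0.910) and Ramp2 (0.896) for Elk3, and Ptprb (0.927), Gpr146 (0.913) and Tmem88 (0.908) for Ets2. They were Zfp410 (0.891), Fermt2 (0.863) and Plekhf2 (0.862) for Ets1, Flnc (0.960), Cep78 (0.911) and Gria3 (0.905) for Etv4, and Lbh (0.916), Ptgr1 (0.913) and Spred2 (0.904) for Etv5. For Elf1 they were the liver transcript Alb (0.909), Enox2 (0.907) and the liver transcript Apoa1 (0.907), for Elf2 Camta1 (0.935), Tbxa2r (0.870) and Slc35b3 (0.869), and for Elf4 Elmo1 (0.852), Grn (0.849) and Zc3h3 (0.846). For Etv6 they were Zfp335 (0.846), Cbll1 (0.834) and Ccnk (0.826), and for Gabpa Ptpn4 (0.791), Kbtbd11 (0.785) and Arhgap5 (0.752), the lowest values of the 10 members.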

How the data were processed

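Polyadenylated RNA of 24 mouse libraries, 3 in each of 8 groups, was sequenced as paired 51 bp reads. The authors mapped reads with TopHat to mm9 and deposited FPKM from Cufflinks, with upper-quartile normalization and bias correction, as 1 value per RefSeq transcript. Versions, annotation release and read numbers are not given in the sources used here, so depth is unknown. Precision therefore rests on the spread of each group's libraries. The methods call separate isolations replicates for MACs. For the EC groups the captions of the study's expression plots speak of individual isolates. How separate these isolates were is not given in the sources used here. The p-values measure only the spread between these libraries, part of which may be technical. A listed 0 gives no detection limit.

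Of 27583 transcripts 26934 were joined to a current symbol and summed per gene, giving 22282 genes with the 649 others kept apart. limma 3.58.1 in R 4.3.3 was fitted to log2(FPKM + 1) in 1 model over the 8 groups, with a mean-variance trend. Tests were two-sided, and p-values were adjusted by Benjamini-Hochberg across 14964 genes whose FPKM averaged at least 1. The study tested pairs of groups on averaged FPKM, which was not repeated. The procedure was tested on simulated data. Replicate numbers were not taken as pairs, because in none of the 8 contrasts checked did same-numbered libraries all correlate above 0.1. Library medians were shifted by -0.197 to 0.128 on the log2 scale. Tables and figures used Python 3.11.15, pandas 2.3.3, numpy 2.4.6 and matplotlib 3.10.9.

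All 10 members were named. Of the Ets, Erk readout and partner lists, called genes were named, at most 5 per list and comparison, and for likeness the 3 genes outside the family with the highest Pearson r among genes averaging at least 10. The members and lists were chosen with earlier results of these data known. Alternatives changed the pseudocount (0.1 or 10), dropped the filter or raised it to 10, or used scaling by library medians, fits of only the groups compared, the replicate number as a block and leaving out each library. Alternatives that leave out the libraries that stand apart or the LSECs, and a block of the RACVEC and MAC libraries paired in the file headers, were chosen after seeing the data. Gene positions are those of GENCODE M1, and promoters those of RefSeq on GRCm38.p6.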

Additional observations from a re-analysis of the deposited data

How the results depend on the processing

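Of 212 recomputed counts of called members over 13 comparisons, 199 stayed within 1.5 times the reported count, and 13 moved. Counts of 0 that stayed at 0 are among the 199, and most comparisons had a reported count of 0. The 199 therefore says little about the comparisons with calls. With only the groups compared in the fit, the count was 1 in place of 3 in Akt-RACVECs against Akt-MACs (Elk3 was called), 1 in place of 0 in Akt-RACVECs against RACVECs and in RACVECs against cultured ECs (Ets2 in each), and 5 in place of 3 in Akt-liver ECs against LSECs. Over all genes these fits called 1377 in place of 2924 and 71 in place of 39 in the first 2 comparisons. In the last 2 they called 140 in place of 282 and 4591 in place of 4045. Without Akt-LEC 1 and Akt-liver EC 1 the member count was 2 in place of 0 in RACVECs against cultured ECs (657 in place of 282 over all genes). Without the LSECs the F test called 4 members in place of 9, and 2997 genes in place of 8082. Leaving out each library in turn gave 3 to 5 members in Akt-RACVECs against Akt-MACs, 2 to 4 in MACs against cultured ECs (2 without MAC 1 or MAC 2), 3 to 4 in Akt-liver ECs against LSECs, 0 to 1 in Sox17-RACVECs against Akt-RACVECs and 8 to 9 in the F test, and 0 in the other 8 comparisons. In the first 5 of these, all genes called numbered 1601 to 2505, 1334 to 2309, 3359 to 3878, 0 to 340 and 6611 to 8716.

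With the replicate number as a block, in a fit of the groups compared, the count was 0 in place of 3 in Akt-RACVECs against Akt-MACs (adjusted p 0.0565 for Elk3, 0.0984 for Ets2 and 0.0767 for Etv5), 5 in place of 3 in Akt-liver ECs against LSECs and 1 in place of 0 in RACVECs against cultured ECs. Over all genes the same fits called 316 in place of 2924, 4282 in place of 4045 and 226 in place of 282. The replicate numbers did not pair the libraries. In the 8 contrasts checked 0 to 2 of the 3 pairs correlated best with their own number. With the pairs named in the headers as a block, RACVECs against MACs called 0 members. That fit called 0 of all 14059 genes tested, so its count says nothing particular to the members. For single members, of 758 recomputed values with an unadjusted p below 0.05 as reported, 699 kept their direction and side of the threshold, 40 lost and 18 gained a call, and 1 reversed, Ets1 in Akt-RACVECs against Akt-MACs (-0.195, adjusted p = 0.907, without Akt-MAC 2 and 3, of a range of 0.0125 to 0.907). The cause was not tested. Directions of members that were not called and lay near 0 changed under some alternatives. Depth is unknown, and 3 libraries per group limit the precision.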
